A study of Homo sapiens with 18 samples.

Results

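The zinc finger genes described here are 52 genes of the zinc finger clusters at the distal end of the long arm of human chromosome 19 (band 19q13.4), chosen by name from a fixed list. All 52 matched 1 identifier each among the 58051 gene identifiers of the deposited tables. On GRCh38 with GENCODE 29 annotation they lie between positions 51804816 and 58440222 of chromosome 19, in 2 blocks: 36 genes from 51804816 to 53580269 and 16 genes from 56375846 to 58440222. The same stretch holds 65 further zinc finger genes, and 561 lie elsewhere in the genome.

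RNA was sequenced from NCI-H460, an established line of large cell lung cancer with epithelial, adherent growth, labelled as wild type. It was used as 3 populations: the parental line, resistant 1 and resistant 2. The labels state neither how the resistant populations were obtained nor whether each is a clone, so p-values cover the spread between libraries of a population and not between independently derived populations. For 48 h each population received the solvent DMSO (0.7%) or 2 µM all-trans retinoic acid (ATRA) with decitabine, labelled as 50 µM, which gives 6 groups of 3 biological replicates. Decitabine is a cytidine analogue that traps DNA methyltransferases on DNA, and ATRA activates the retinoic acid receptors.

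KRAB zinc finger proteins bind DNA through an array of C2H2 zinc fingers and recruit the corepressor TRIM28 through their KRAB domain. TRIM28 brings the histone methyltransferase SETDB1 and heterochromatin proteins, and many KRAB zinc finger proteins silence transposable elements. Promoter methylation in tumours has been described for several genes of this region, among them ZNF154, ZNF671, ZNF677, ZNF582 and ZNF331. Methylation was not measured here, and whether each listed protein carries a KRAB domain was not examined.

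Promoters are shown for 6 genes: 4 that had no read or almost none in untreated parental cells, and the neighbours ZNF160 and ZNF415, which stood far apart in resistant 2. Each line gives 300 bases, from 250 before to 50 after the first listed RefSeq start (GRCh38.p14), 5′ to 3′ along the gene, with every CG dinucleotide in capitals.
ZNF677, chr19:53254774-53255073, minus strand: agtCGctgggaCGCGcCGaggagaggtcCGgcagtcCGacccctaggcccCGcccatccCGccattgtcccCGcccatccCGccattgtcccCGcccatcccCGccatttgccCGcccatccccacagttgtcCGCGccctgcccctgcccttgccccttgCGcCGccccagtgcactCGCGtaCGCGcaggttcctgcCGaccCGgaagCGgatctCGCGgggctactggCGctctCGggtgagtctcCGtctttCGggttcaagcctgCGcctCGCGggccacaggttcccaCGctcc
ZNF667, chr19:56477296-56477595, minus strand: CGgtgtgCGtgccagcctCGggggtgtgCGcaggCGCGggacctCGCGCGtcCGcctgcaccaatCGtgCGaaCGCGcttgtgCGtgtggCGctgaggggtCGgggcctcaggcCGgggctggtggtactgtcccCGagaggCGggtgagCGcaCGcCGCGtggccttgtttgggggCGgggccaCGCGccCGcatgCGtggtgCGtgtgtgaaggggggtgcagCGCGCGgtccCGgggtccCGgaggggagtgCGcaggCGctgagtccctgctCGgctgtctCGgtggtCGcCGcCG
ZNF154, chr19:57709155-57709454, minus strand: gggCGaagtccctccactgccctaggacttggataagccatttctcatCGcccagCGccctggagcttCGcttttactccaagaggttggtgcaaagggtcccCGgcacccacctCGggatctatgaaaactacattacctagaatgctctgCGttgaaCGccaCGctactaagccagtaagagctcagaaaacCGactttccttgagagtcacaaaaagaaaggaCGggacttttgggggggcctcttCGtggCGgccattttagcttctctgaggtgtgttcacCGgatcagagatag
ZNF671, chr19:57727575-57727874, minus strand: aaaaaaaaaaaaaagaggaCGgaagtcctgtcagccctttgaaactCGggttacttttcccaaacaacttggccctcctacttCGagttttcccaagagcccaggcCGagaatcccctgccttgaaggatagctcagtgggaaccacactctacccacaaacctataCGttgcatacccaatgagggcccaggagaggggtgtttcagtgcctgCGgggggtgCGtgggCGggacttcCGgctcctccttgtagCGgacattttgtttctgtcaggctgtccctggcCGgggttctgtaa
ZNF160, chr19:53103373-53103672, minus strand: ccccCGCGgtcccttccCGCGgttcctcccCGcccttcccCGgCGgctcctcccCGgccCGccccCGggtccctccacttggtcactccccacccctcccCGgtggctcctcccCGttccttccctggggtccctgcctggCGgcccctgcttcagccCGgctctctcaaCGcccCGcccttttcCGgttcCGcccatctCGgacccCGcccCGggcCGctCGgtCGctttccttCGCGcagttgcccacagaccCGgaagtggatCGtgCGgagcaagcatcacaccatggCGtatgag
ZNF415, chr19:53132861-53133160, minus strand: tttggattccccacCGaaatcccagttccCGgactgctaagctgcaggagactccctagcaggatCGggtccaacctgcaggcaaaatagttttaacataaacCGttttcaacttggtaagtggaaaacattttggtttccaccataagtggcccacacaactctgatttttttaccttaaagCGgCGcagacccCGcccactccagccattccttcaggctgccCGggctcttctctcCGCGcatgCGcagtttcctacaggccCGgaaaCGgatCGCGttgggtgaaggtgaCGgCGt

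The letters CG, which read the same on both strands, occurred 34 times in the window of ZNF677, 42 times in that of ZNF667, 14 times in ZNF154, 11 times in ZNF671, 30 times in ZNF160 and 17 times in ZNF415. Of 35116 promoter windows of this length, 15.6% held at least as many as ZNF677, 5.85% as many as ZNF667, 50.3% as many as ZNF154, 54.7% as many as ZNF671, 22.4% as many as ZNF160 and 46.0% as many as ZNF415. Over the 43 members with a listed promoter the median was 25, against 14 over all promoters, and 41 of the 43 had 14 or more. The 12 of these members with a mean under 10 normalized counts in untreated resistant 2 had a median of 23 (11 to 42), and the other 31 had a median of 25.

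Levels within a treatment are normalized counts, and levels across treatments are CPM, read counts scaled by sequencing depth over all 18 libraries. Means are given ± SD with n = 3 libraries, and fitted changes ± SE. A gene was called where its p, adjusted over all genes tested (limma, Benjamini-Hochberg), was under 0.05. Fitted changes are on the log2(value + 1) scale, which understates the change of low genes. The libraries held 116.9 to 140.9 M reads with DMSO and 116.5 to 181.2 M over the restored genes with the drugs.

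Markers of other cell types were read in the DMSO libraries. Epithelial markers, of which 6 or 7 of 8 stood above 10 in each population, summed to 224694 to 271864 normalized counts (parental), 305833 to 445577 (resistant 1) and 137304 to 205741 (resistant 2), without overlap. Of 7 tested, 2 were higher and 3 lower in resistant 1, and 4 lower in resistant 2. With the drugs 8 of 8 were lower in resistant 2 than in parental cells (median -2.61), and 6 of 8 rose in parental cells (median 1.53). The summed immune markers reached 397 and the endothelial ones 262, with CD3E, MS4A1 and CDH5 at 0 in parental libraries. Fibroblast markers, of which 5 of 6 stood above 10 in each population, summed to 8079 to 10044 (parental), 482 to 548 (resistant 1) and 3483 to 4481 (resistant 2). Their part in the results was not tested, and in bulk samples fewer cells with a transcript and less of it per cell cannot be told apart.

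**Figure D1:**
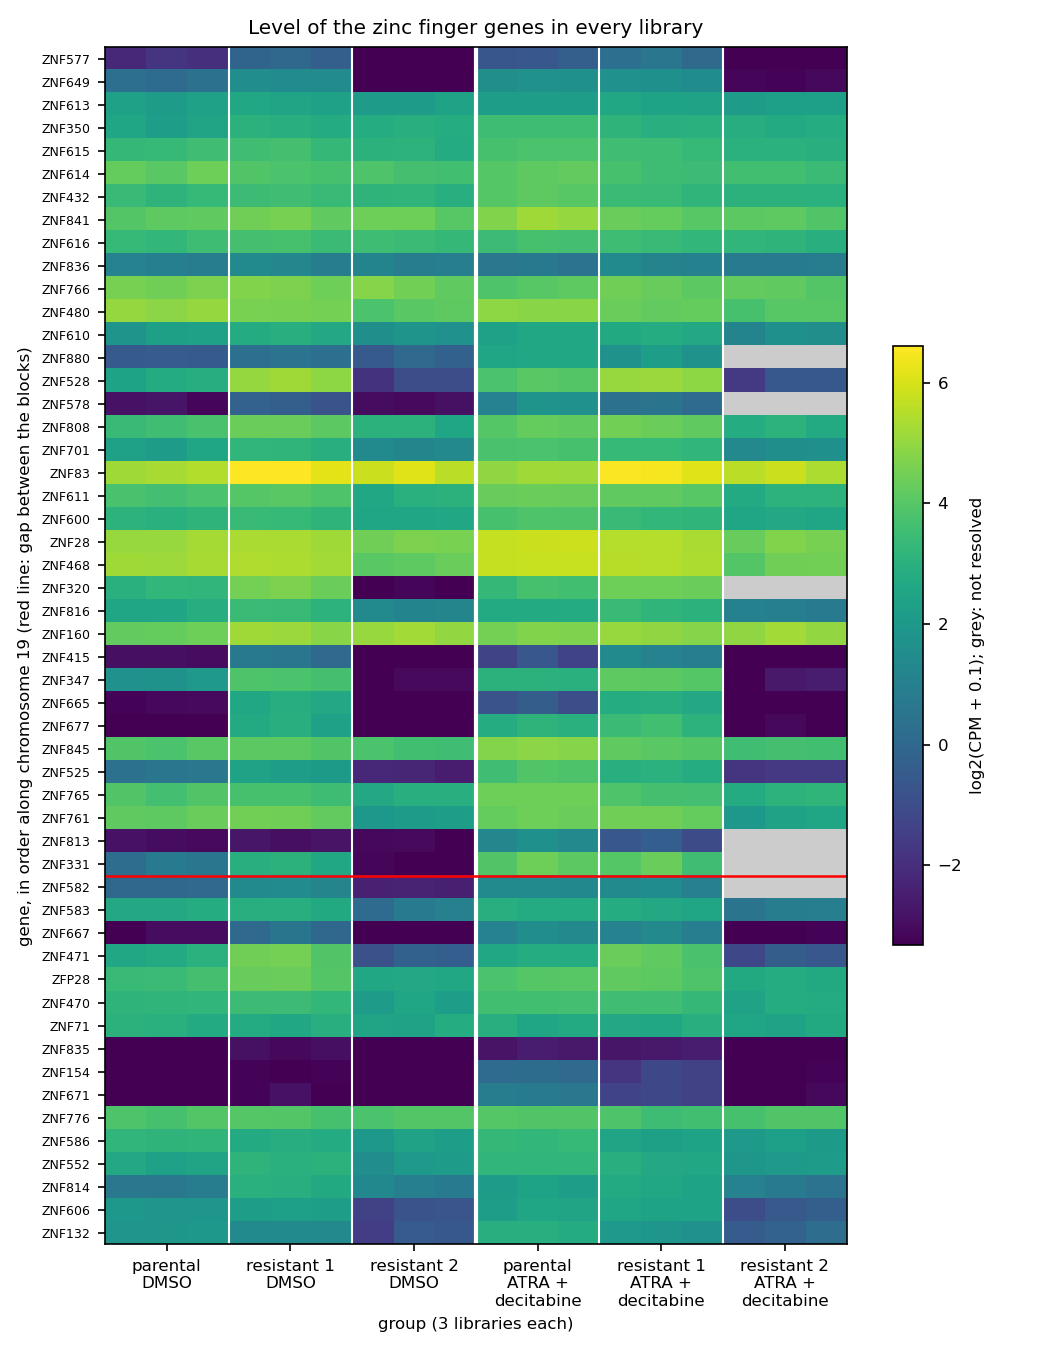
Level of each of the 52 zinc finger genes (rows, in order along the chromosome) in each of the 18 libraries (columns, 3 per group), as log2(CPM + 0.1), with grey for values that could not be restored. Genes with few or no reads are most frequent in resistant 2, where 9 members had no read in any untreated library.

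In untreated parental cells 9 members had a mean under 10 normalized counts, and 4 of these had no read in any library: ZNF677, ZNF154, ZNF671 and ZNF835. Untreated resistant 1 had 4 members under 10 (ZNF835, ZNF813, ZNF671 and ZNF154), each with at least a read. In untreated resistant 2 there were 14, of which 9 had no read: ZNF577, ZNF649, ZNF677, ZNF415, ZNF665, ZNF835, ZNF667, ZNF154 and ZNF671. A count of 0 allows a level of up to 3 reads per library, on average 3.02 normalized counts in parental cells and 3.18 in resistant 2, for counting error only.

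Per kilobase of exon, ZNF480 (6.51 CPM), ZNF28 (5.90) and ZNF83 (4.99) stood highest in untreated parental cells. In resistant 1 these were ZNF83 (11.04), ZNF28 (6.61) and ZNF841 (4.93), and in resistant 2 ZNF83 (7.20), ZNF841 (4.56) and ZNF160 (4.01). The median member stood at 1.09 CPM per kilobase in the parental line, against 1.46 (resistant 1) and 0.536 (resistant 2).

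The first comparison asks how the genes stood in resistant 1 without drugs. Of 48 members tested, 25 were higher than in parental cells, 3 were lower and 20 were not called, against 29.3% higher and 26.6% lower among all 21643 genes tested. The median log2 fold change was 0.51 for the members and 0.01 for all genes. ZNF813, ZNF835, ZNF154 and ZNF671 were below the filter on low values and not tested. The 48 tested and the 25 higher include ZNF677, ZNF665, ZNF667, ZNF415 and ZNF578, which passed the filter only through resistant 1. These counts are therefore description only. The members with the largest fitted increases were nearly or wholly without reads in parental cells.

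ZNF677, reported as methylated in non-small cell lung cancer, had no read in the parental libraries and stood at 756, 892 and 587 normalized counts in resistant 1. This is at least 246-fold higher against a floor of 3 reads per library (adjusted p = 6.28e-10, limma). Resistant 2 had no read in any library. For genes this near 0 the fitted change depends on the pseudocount, so levels are given in its place. ZNF677, ZNF665, ZNF667, ZNF415 and ZNF578 passed the filter with DMSO only through the resistant 1 libraries. They leave the test when any of these libraries is left out. Their p-values with DMSO therefore follow a selection on the group where they stood high, and serve as description only.

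ZNF665 stood at 0.985, 1.92 and 2.16 normalized counts in parental libraries, 1 or 2 reads each, and at 706, 831 and 712 in resistant 1 (adjusted p = 1.99e-09, limma). ZNF667 stood at 0, 2.87 and 3.25 against 109, 156 and 106 (adjusted p = 3.81e-06). ZNF415, reported to modulate AP-1 and p53 reporters, stood at 3.94, 3.83 and 3.25 against 174, 161 and 110.1 (adjusted p = 1.29e-07). In these 3 genes every resistant 1 library stood far above every parental library.

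Members already expressed in parental cells also rose, and 4 of them, chosen after their values were seen, show the range. ZNF528 went from 641, 797 and 877 to 3779.7, 4217 and 3469 normalized counts (log2 fold change 2.31 ± 0.287, adjusted p = 4.36e-05, limma). ZNF331, an imprinted gene and candidate tumour suppressor, went from 126, 193 and 169 to 882, 959.8 and 686 (log2 fold change 2.37 ± 0.312, adjusted p = 6.72e-05). ZNF814 went from 173, 172 and 210.0 to 904, 867 and 747 (log2 fold change 2.17 ± 0.181, adjusted p = 2e-06). Its exons overlap those of genes on the opposite strand over 23.3% of their length. ZNF83, among the highest members in every population, went from 4773 ± 513 to 10268 ± 1537 (log2 fold change 1.10 ± 0.156, adjusted p = 0.00012). In these 4 the groups did not overlap.

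The 3 members that fell in resistant 1 changed little. ZNF614 went from 2285, 1951 and 2605 to 1721, 1619 and 1489 normalized counts (log2 fold change -0.49 ± 0.128, adjusted p = 0.0068, limma). ZNF480 went from 3849.8, 3416 and 3992 to 2833, 2733 and 2647 (log2 fold change -0.45 ± 0.112, adjusted p = 0.00518). ZNF586 went from 1095, 1006 and 1084 to 767, 846 and 791 (log2 fold change -0.41 ± 0.133, adjusted p = 0.0223). Its call was lost without parental replicate 1 or 3 or resistant 1 replicate 1 or 3, at adjusted p of 0.0514 to 0.0805.

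The other members called higher in resistant 1 were ZNF577, ZNF649, ZNF350, ZNF610, ZNF880, ZNF578, ZNF808, ZNF701, ZNF320, ZNF816, ZNF160, ZNF347, ZNF525, ZNF582, ZNF471, ZFP28 and ZNF552. The 20 members not called had fitted changes from -0.58 to 0.29: ZNF613, ZNF615, ZNF432, ZNF841, ZNF616, ZNF836, ZNF766, ZNF611, ZNF600, ZNF28, ZNF468, ZNF845, ZNF765, ZNF761, ZNF583, ZNF470, ZNF71, ZNF776, ZNF606 and ZNF132.

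The second comparison set resistant 2 against the same parental libraries. Here 33 of 48 members were lower, 3 were higher and 12 were not called, against 29.8% lower and 32.1% higher among all genes. The median log2 fold change was -0.87 for the members and 0.02 for all genes.

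The largest falls ran from a clear level to almost no read. ZNF320 stood at 921, 1091 and 1107 normalized counts in parental libraries and at 0, 1.07 and 0 in resistant 2, a single read (adjusted p = 3.42e-10, limma). Of the 31-base words of its transcripts 79.2% also occur in other genes, so its own level is uncertain. ZNF347 stood at 372, 383 and 475 against 0, 2.13 and 2.17 (adjusted p = 2.63e-08). ZNF649, a repressor of SRE and AP-1 reporters, stood at 134, 117 and 146 and was not detected in resistant 2, which is at least 41.6-fold less (adjusted p = 6.17e-10). ZNF331 stood at 126, 193 and 169 against 1.03, 0 and 0 (adjusted p = 1.13e-08). In resistant 1 these genes stood at 2633 ± 260.1 (ZNF320), 1588 ± 99.2 (ZNF347), 314 ± 11.3 (ZNF649) and 842 ± 141 (ZNF331).

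A further 4 called members had no read in resistant 2. ZNF577 had 14.8, 22.0 and 19.5 normalized counts in parental cells, at least 5.90-fold more (adjusted p = 1.79e-07, limma), and 95.5, 107 and 81.1 in resistant 1. ZNF415, ZNF665 and ZNF667 stood so low in parental cells (3.67 ± 0.372, 1.69 ± 0.622 and 2.04 ± 1.78) that their calls rest on a few reads (adjusted p = 5.25e-05, 0.00117 and 0.0374). All 3 calls were lost on the log2(CPM + 1) scale, at adjusted p of 0.645, 0.823 and 0.778. That of ZNF667 was also lost without parental replicate 2 or 3 (0.139 each) or any resistant 2 library (0.0631 to 0.0746).

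Other members kept a low level in resistant 2, of which 4 are named here after their values were seen. ZNF528 stood at 20.5, 50.1 and 47.8 normalized counts, against 641, 797 and 877 in parental libraries (log2 fold change -4.34 ± 0.287, adjusted p = 2.23e-07, limma). ZNF525 stood at 14.4, 12.8 and 8.69 against 145, 161 and 179.7 (log2 fold change -3.67 ± 0.218, adjusted p = 9.7e-08). ZNF606 stood at 32.9, 57.6 and 60.8 against 452, 409.9 and 445 (log2 fold change -3.13 ± 0.218, adjusted p = 3.31e-07). ZNF132, the last member towards the chromosome end, stood at 29.8, 74.6 and 66.2 against 415, 426 and 463 (log2 fold change -3.01 ± 0.286, adjusted p = 3.93e-06). In each the highest resistant 2 library lay below the lowest parental library.

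The 3 members higher in resistant 2 all lie in the first block. ZNF160 went from 2241, 2226 and 2613 to 3962, 4452 and 3678 normalized counts (log2 fold change 0.77 ± 0.124, adjusted p = 0.000232, limma). ZNF83 went from 4379, 4588 and 5353 to 6637, 8275 and 5575 (log2 fold change 0.50 ± 0.156, adjusted p = 0.0154), a call lost without parental replicate 1 (adjusted p = 0.0581) or resistant 2 replicate 2 (0.0697). ZNF350, which encodes the BRCA1 partner ZBRK1, went from 667, 525 and 666 to 818, 885 and 823 (log2 fold change 0.45 ± 0.134, adjusted p = 0.0123). In all 3 the resistant 2 libraries stood above the parental ones. The 12 members not called had fitted changes from -0.29 to 0.29, and ZNF677 was among them, with no read in either population.

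Neighbouring genes could differ. ZNF160 (53066606 to 53103436) and ZNF415 (53107879 to 53133077) lie 4.44 kb apart on the minus strand. In resistant 2 ZNF160 stood at 4031 ± 391 normalized counts and ZNF415 had no read. ZNF845, the next listed gene after ZNF677, stood at 1646, 1441 and 1363 there, where ZNF677 had no read. By block, 22 of 35 and 11 of 13 tested members were lower in resistant 2, with medians of -0.58 and -0.99. In resistant 1, 19 of 35 and 6 of 13 were higher, with medians of 0.59 and 0.29.

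**Figure D2:**
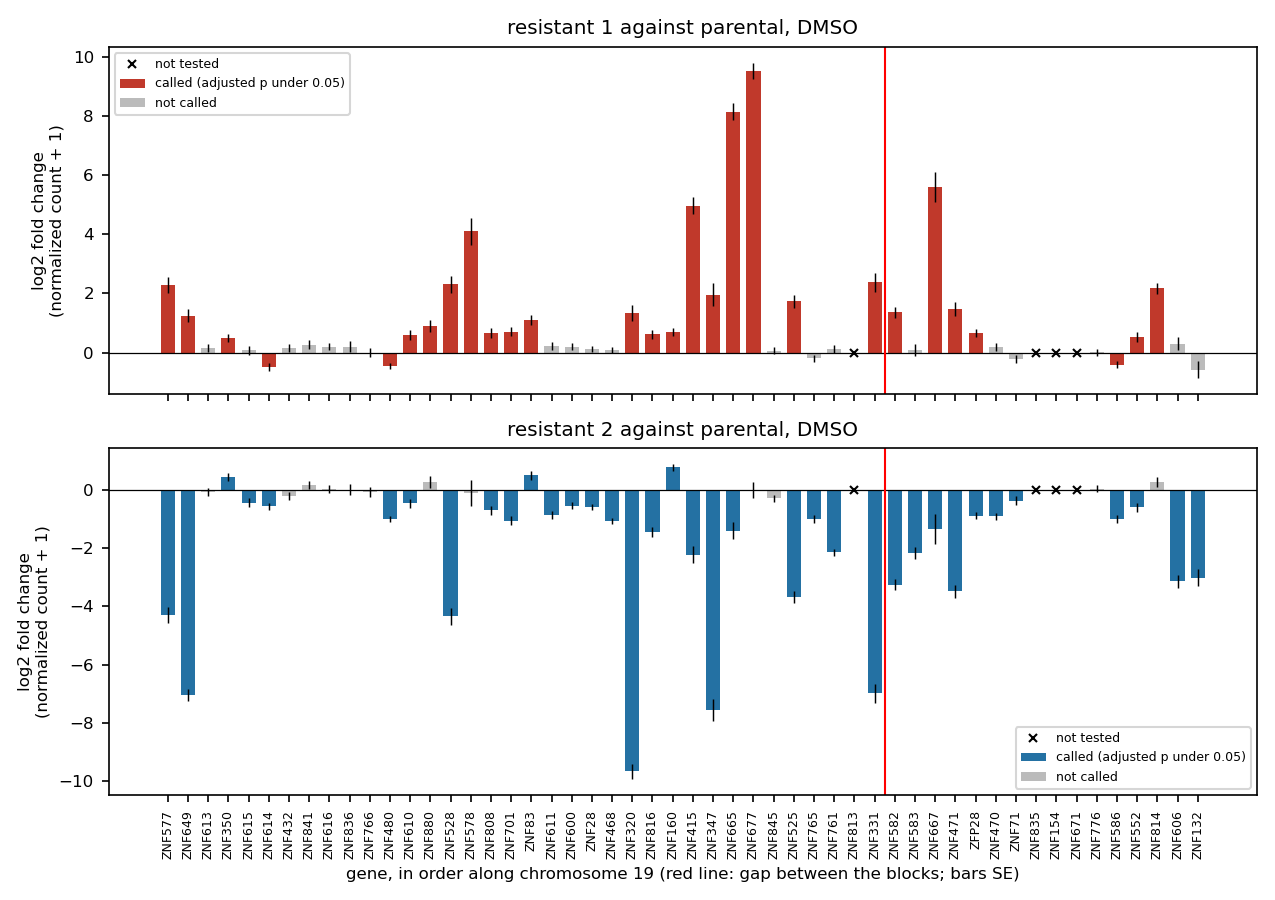
Fitted log2 fold change of each zinc finger gene against parental cells with DMSO, on the log2(normalized count + 1) scale with its SE, in order along the chromosome, for resistant 1 and resistant 2. The changes reach 9.52 (ZNF677) in resistant 1 and -9.67 (ZNF320) in resistant 2, with genes near 0 between them.

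Set directly against each other with DMSO, resistant 1 was higher than resistant 2 in 38 of 48 members, against 27.4% of all genes. It was lower in 0 by limma, edgeR and DESeq2, and in 0 at an unadjusted p under 0.05, against 26% lower among all genes. The medians were 1.14 for the members and 0.02 for all genes. The largest fitted differences were those of ZNF320, ZNF665, ZNF347 and ZNF677 (adjusted p = 2.58e-10, 8.58e-10, 7.01e-09 and 8.71e-10, limma). ZNF665, ZNF677, ZNF667, ZNF415 and ZNF578 passed the filter only through resistant 1 and are among the 38. The count and their p-values are therefore description only. ZNF665 was at least 236-fold, ZNF677 at least 234-fold, ZNF649 at least 98.8-fold and ZNF415 at least 46.6-fold higher in resistant 1.

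The same counts were taken over other genes. Of 55 tested zinc finger genes of the stretch that are not on the list, 16 were higher and 17 lower in resistant 1, and 11 higher and 23 lower in resistant 2. Of 433 tested zinc finger genes elsewhere, 115 were higher and 149 lower in resistant 1, and 92 higher and 179 lower in resistant 2. Of these, 156 lie elsewhere on chromosome 19. In that set 63 were higher and 26 lower in resistant 1 (40.4% and 16.7%), and 30 higher and 70 lower in resistant 2 (19.2% and 44.9%). Between the resistant populations 81 were higher and 15 lower in resistant 1. Of 58 other protein-coding genes of the stretch, 18 were higher and 10 lower in resistant 1, and 13 higher and 13 lower in resistant 2. The listed genes were chosen with results of these data known, so these counts are a description.

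**Figure D3:**
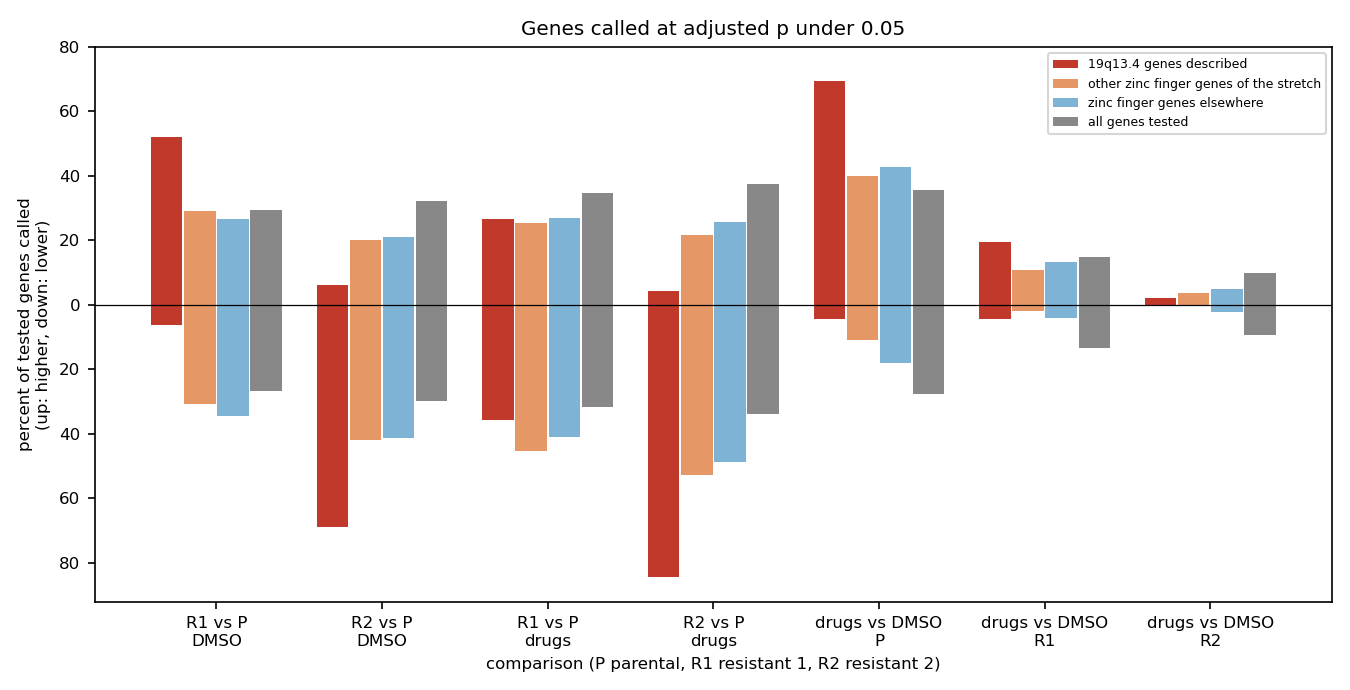
Percent of tested genes called higher or lower in 7 comparisons, for the listed 19q13.4 genes, other zinc finger genes of the stretch, zinc finger genes elsewhere and all genes. Among the listed genes 52.1% were higher in resistant 1 and 68.8% lower in resistant 2 with DMSO, and 69.6% rose with the drugs in parental cells. The 52.1% includes ZNF677, ZNF665, ZNF667, ZNF415 and ZNF578, which passed the filter only through resistant 1. The 69.6% includes ZNF671, ZNF154 and ZNF835, which passed it only through treated libraries.

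The response to the drugs was read first in parental cells. Of 46 members with restored values, 32 rose, 2 fell and 12 were not called, against 35.7% higher and 27.6% lower among all 21226 genes tested. The median log2 change was 0.50 for the members and 0.03 for all genes. The 32 include ZNF671, ZNF154 and ZNF835, which passed the filter only through treated libraries, so the count is description only. By block, 22 of 31 and 10 of 15 members rose. Related gene sets rose too, by smaller shares. Of 144 zinc finger genes elsewhere on chromosome 19, 72 rose (50%) and 16 fell. Of 63 other protein-coding genes of the stretch, 32 rose (50.8%) and 7 fell. Of its 55 other zinc finger genes, 22 rose (40%) and 6 fell.

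The members without a read in untreated parental cells were detected with the drugs. ZNF677 went from 0 to 6.94, 8.70 and 7.89 CPM, at least 309-fold higher (adjusted p = 2.08e-12, limma). ZNF671, reported as a methylation marker of cervical neoplasia, went from 0 to 1.76, 1.66 and 1.46, at least 64.1-fold higher (adjusted p = 9.01e-15). ZNF154, reported as methylated in many tumour types, went from 0 to 1.01, 1.05 and 0.956, at least 39.6-fold higher (adjusted p = 2.92e-13). ZNF835 went from 0 to 0.0439, 0.0706 and 0.0619, at least 2.32-fold higher (adjusted p = 0.000381). In all 4 genes every treated library stood above every untreated one. ZNF671, ZNF154 and ZNF835 passed the filter only through treated libraries. Their p-values follow a selection on the groups where they stood high, and serve as description only.

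Members with a few reads rose as well, and so did ZNF525 from a low level. ZNF667 went from 0, 0.0248 and 0.0266 to 2.01, 2.80 and 2.43 CPM (adjusted p = 3.35e-11, limma). ZNF665 went from 0.00825, 0.0165 and 0.0177 to 0.489, 0.667 and 0.422 (adjusted p = 1.15e-06), against 6.11, 7.11 and 6.18 in untreated resistant 1. ZNF415 went from 0.0330, 0.0331 and 0.0266 to 0.314, 0.539 and 0.298 (adjusted p = 0.000663). ZNF525 went from 1.21, 1.39 and 1.47 to 11.7, 15.04 and 14.3, a ratio of means of 10.1 (log2 fold change 2.63 ± 0.0954, adjusted p = 7.17e-13). Of the 31-base words of ZNF525, 19.4% occur in other genes.

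Smaller rises are shown by 4 members chosen after their values were seen. ZNF350 rose from 5.19 ± 0.573 to 11.4 ± 0.0993 CPM, 2.20-fold (adjusted p = 5.34e-08, limma). ZNF649 rose 2.74-fold from 1.11 ± 0.0947 CPM and ZNF347 2.36-fold in their means (adjusted p = 3.89e-10 and 1.39e-08). ZNF808, whose inherited loss causes pancreatic agenesis, rose 1.48-fold (adjusted p = 0.00256), with 35.6% of its 31-base words shared.

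The 2 members that fell were ZNF766 and ZNF836. ZNF766 went from 23.7, 22.1 and 24.7 to 14.6, 16.2 and 17.6 CPM (log2 fold change -0.52 ± 0.134, adjusted p = 0.00289, limma). ZNF836 went from 1.99, 1.83 and 1.73 to 1.44, 1.53 and 1.29 (log2 fold change -0.23 ± 0.0977, adjusted p = 0.0465). The call of ZNF836 was lost when any 1 of 11 libraries was left out: each untreated parental one, treated parental replicates 1 and 3, untreated replicate 2 of resistant 1, untreated replicates 2 and 3 of resistant 2 and each treated one of resistant 2. The highest adjusted p was 0.138, without treated parental replicate 3.

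For 6 members the treated values of resistant 2 could not be restored, so they entered no test of treated libraries. Their parental and resistant 1 values were restored, and those of parental cells are given here as levels. ZNF331 went from 1.06, 1.67 and 1.38 to 15.1, 21.2 and 17.0 CPM and ZNF880 from 0.602, 0.637 and 0.603 to 5.61, 6.10 and 5.90. ZNF813 went from 0.0412, 0.0248 and 0.0177 to 2.31, 3.07 and 2.46 and ZNF578 from 0.0412, 0.0496 and 0.00887 to 2.04, 3.39 and 3.16. In these 4 the lowest treated library stood above the highest untreated one. ZNF582, reported as a methylation marker of cervical neoplasia, went from 0.922 ± 0.0378 to 2.49 ± 0.110, and ZNF320 from 8.73 ± 0.902 to 11.5 ± 1.69.

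In resistant 1 the drugs moved fewer members. Of 46, 9 rose and 2 fell, against 14.7% and 13.5% of all genes. Members left out of the test also moved in mean CPM. ZNF331 went from 7.27 ± 1.18 to 15.9 ± 4.40, and ZNF880 from 1.17 ± 0.0902 to 3.76 ± 0.787. ZNF813 went from 0.0419 ± 0.0107 to 0.544 ± 0.145, and ZNF578 from 0.651 ± 0.146 to 1.18 ± 0.159. In each of these every treated library stood above every untreated one. ZNF582 (2.45 to 2.39) and ZNF320 (22.7 to 20.8) did not rise. ZNF677 went from 6.54, 7.64 and 5.10 to 10.8, 12.1 and 8.39 CPM (log2 fold change 0.62 ± 0.124, adjusted p = 0.00128, limma). ZNF667 went from 0.939, 1.34 and 0.923 to 2.03, 2.45 and 1.82 (log2 fold change 0.58 ± 0.0858, adjusted p = 9.19e-05). ZNF525 went from 5.14, 4.67 and 4.13 to 7.34, 8.04 and 6.95 (log2 fold change 0.58 ± 0.0954, adjusted p = 0.000249). ZNF415 went from 1.50, 1.38 and 0.956 to 2.59, 2.02 and 1.79 (log2 fold change 0.46 ± 0.0902, adjusted p = 0.00117). In these 4 genes the treated libraries stood above the untreated ones.

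ZNF154 and ZNF671 were nearly without reads in untreated resistant 1. ZNF154 went from 0.00751, 0 and 0.00839 to 0.184, 0.344 and 0.277 CPM and ZNF671 from 0.00751, 0.0390 and 0 to 0.295, 0.344 and 0.277 (adjusted p = 2.11e-06 and 1.23e-06, limma). Both genes passed the filter only through treated libraries, so these p-values are description only. ZNF586 fell from 6.63, 7.25 and 6.87 to 5.40, 4.88 and 5.34 (log2 fold change -0.35 ± 0.0959, adjusted p = 0.012), and ZNF480 from 24.5, 23.4 and 23.0 to 20.1, 18.8 and 19.2 (log2 fold change -0.28 ± 0.0910, adjusted p = 0.033). The call of ZNF586 was lost without resistant 1 replicate 2 (untreated 0.0502, treated 0.0603). That of ZNF480 was lost without any untreated resistant 1 library or treated replicate 2 or 3 (0.052 to 0.112). With the replicate number as a block within each population 8 members fell in place of 2. The share of all genes that fell under that block was not counted, so the 8 cannot be set against it.

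In resistant 2, 1 of 46 members was called, ZNF470, against 9.95% higher and 9.24% lower among all genes. It went from 4.33, 5.63 and 4.50 to 5.22, 7.07 and 6.88 CPM (log2 fold change 0.34 ± 0.115, adjusted p = 0.0483, limma). The call was lost when any 1 of 14 libraries was left out: each parental one, replicates 1 and 2 of resistant 1 in both treatments, untreated replicates 1 and 3 and treated replicates 2 and 3 of resistant 2. The highest adjusted p was 0.17, without the last of these. With the replicate block within populations 2 members rose and 5 fell, with no share over all genes counted under that block. No member was lower by limma or edgeR, 1 was by DESeq2, and 2 were at an unadjusted p under 0.05. Of members not called, seen after the fact, ZNF525 went from 0.101 ± 0.0243 to 0.211 ± 0.0161 CPM and ZNF132 from 0.482 ± 0.202 to 0.830 ± 0.223. For these genes the log2(CPM + 1) scale understates the change. In both, and in ZNF649 and ZFP28, every treated library stood above every untreated one. In ZNF614, ZNF616, ZNF836 and ZNF816 every treated library stood below.

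The silent members of resistant 2 stayed at or near 0 with the drugs. ZNF577, ZNF665, ZNF415 and ZNF835 had no read in any treated library. ZNF649 went from 0 to 0.0104 ± 0.00393 CPM, with a read or more in every treated library, against 3.04 ± 0.116 CPM in treated parental cells. ZNF677 had 0, 2.00 and 0 reads in the treated libraries, ZNF667 had 0, 0 and 1.00, ZNF154 had 0, 0 and 1.00 and ZNF671 had 0, 0 and 2.00. In treated parental cells the same 4 genes had 1106, 1356 and 1403 (ZNF677), 321, 436 and 432 (ZNF667), 161, 164 and 170.0 (ZNF154) and 281, 259 and 259 (ZNF671).

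**Figure D4:**
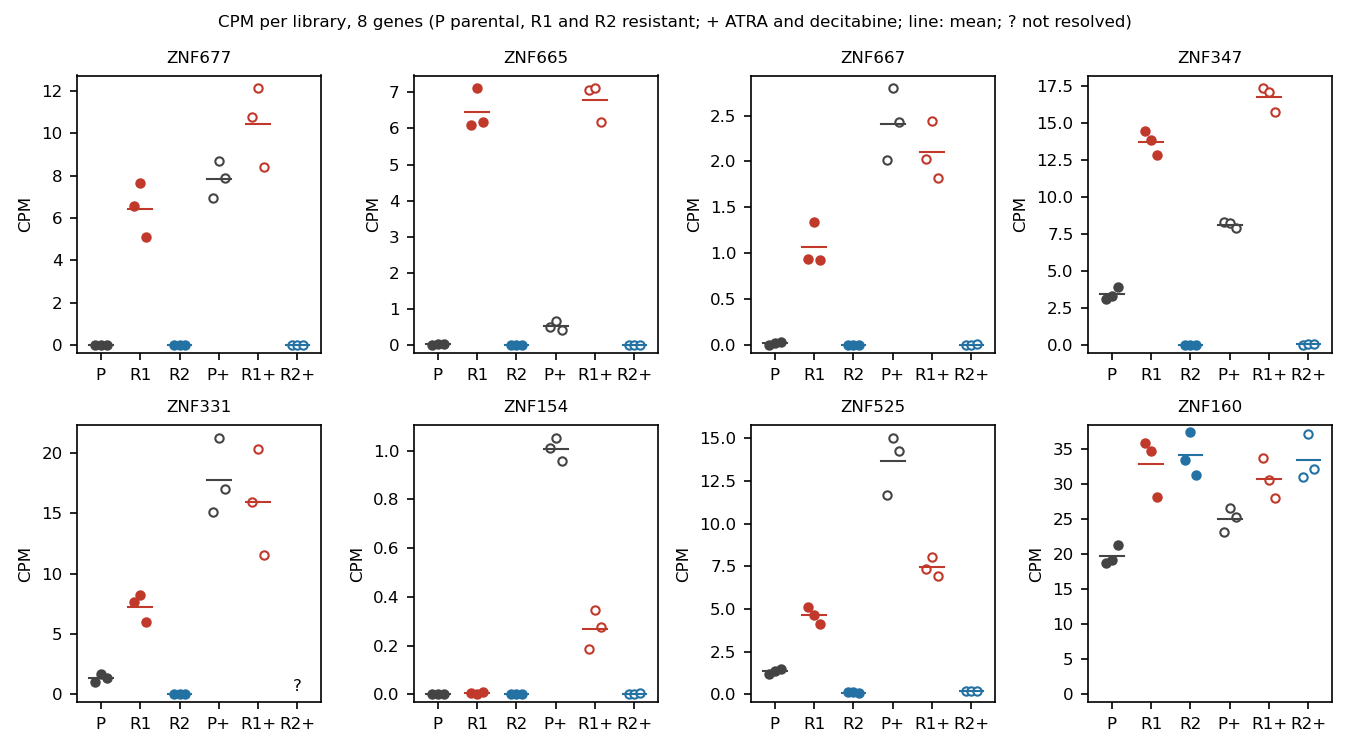
CPM of 8 zinc finger genes in every library, untreated or drug-treated, in parental (P), resistant 1 (R1) and resistant 2 (R2) cells; lines are group means and a question mark stands for values that could not be restored. ZNF677, ZNF665, ZNF667, ZNF347 and ZNF154 stay at or near 0 in resistant 2 in both treatments, whereas ZNF160 is expressed in all 6 groups.

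The differences between responses were tested directly, with the parental libraries shared by both tests. The response of resistant 1 was lower than that of parental cells in 25 of 46 members, against 25.9% of all genes, and that of resistant 2 in 28, against 29%. It was higher in 0 by limma, edgeR and DESeq2 in both, and in 0 and 0 at an unadjusted p under 0.05, against 16.2% and 18.7% of all genes. For ZNF677 the response was 3.14 ± 0.124 (parental), 0.62 ± 0.124 (resistant 1) and 0.01 ± 0.124 (resistant 2), on the log2(CPM + 1) scale. For ZNF525 it was 2.63 ± 0.0954, 0.58 ± 0.0954 and 0.14 ± 0.0954. On this scale a gene without reads has a response of 0, so the difference compares gained levels and not ratios. As ratios of mean CPM, ZNF525 rose 10.1-fold (parental), 1.60-fold (resistant 1) and 2.08-fold (resistant 2), from 1.36, 4.64 and 0.101 CPM. With edgeR on the reads 15 members in place of 28 were lower in resistant 2.

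**Figure D5:**
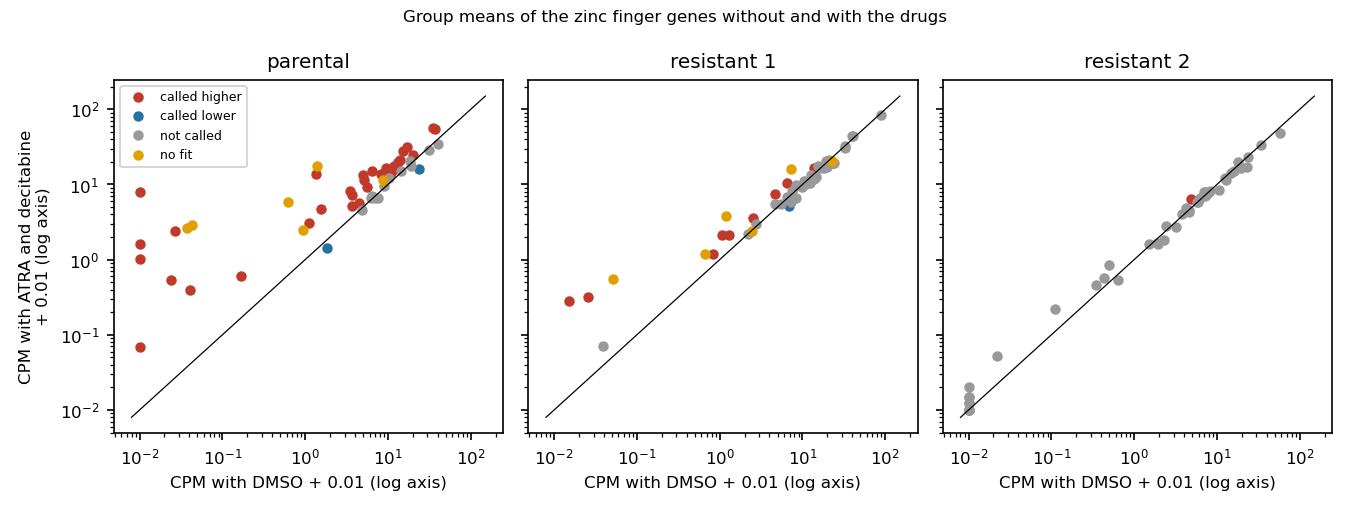
Mean CPM of each zinc finger gene without (horizontal axis) and with (vertical axis) ATRA and decitabine, both as CPM + 0.01 on log axes, in the 3 populations; the line marks equal levels and colours mark the call. Called higher with the drugs were 32 genes in parental, 9 in resistant 1 and 1 in resistant 2 cells.

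With the drugs, 12 of 45 tested members were higher and 16 lower in resistant 1 than in parental cells, against 34.6% and 31.7% of all genes, with medians of -0.07 and 0.03. ZNF665 stood at 1052, 1036 and 906 normalized counts against 67.7, 91.8 and 58.4 in treated parental cells (log2 fold change 3.78 ± 0.214, adjusted p = 5.31e-08, limma). ZNF415 stood at 386, 294 and 262 against 43.4, 74.2 and 41.3 (log2 fold change 2.58 ± 0.272, adjusted p = 6.84e-06). ZNF471 stood at 2991, 2599 and 1967 against 836, 963 and 934 (log2 fold change 1.45 ± 0.220, adjusted p = 0.000122) and ZNF83 at 13984, 12755 and 10228 against 4280.4, 5009.8 and 4856 (log2 fold change 1.38 ± 0.134, adjusted p = 3.53e-06). These 4 had the largest increases, and ZNF677 and ZNF667 were not called (0.49 ± 0.383 and -0.11 ± 0.293).

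Among the 45 tested members the largest differences downward were those of ZNF671, ZNF154, ZNF132 and ZNF586. ZNF671 stood at 44.0, 50.1 and 40.6 normalized counts in treated resistant 1 against 244, 229 and 202 (log2 fold change -2.30 ± 0.396, adjusted p = 0.000315, limma). ZNF154 stood at 27.5, 50.1 and 40.6 against 139.7, 145 and 132 (log2 fold change -1.83 ± 0.336, adjusted p = 0.000495). ZNF132 stood at 583, 526 and 461 against 1019.8, 1052 and 934 (log2 fold change -0.94 ± 0.176, adjusted p = 0.000582), and ZNF586 at 806, 711 and 781 against 1324, 1299.7 and 1362 (log2 fold change -0.80 ± 0.109, adjusted p = 5.44e-05). In each the groups did not overlap. Some members were left out of the test because their treated resistant 2 values were not resolved. Of these, ZNF813 stood at 81.3, 100.2 and 58.2 in treated resistant 1 against 320.2, 422 and 341 in treated parental cells. ZNF578 stood at 185, 190.4 and 147 against 282, 467 and 437.

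In treated resistant 2, 38 of 45 members were lower than in treated parental cells and 2 were higher, against 33.8% and 37.6% of all genes, with medians of -1.13 and 0.05. Of 142 zinc finger genes elsewhere on chromosome 19, 83 were lower (58.5%) and 23 higher. Of 62 other protein-coding genes of the stretch, 29 were lower (46.8%) and 13 higher. Of its 55 other zinc finger genes, 29 were lower (52.7%) and 12 higher. ZNF677 stood at 0, 2.30 and 0 normalized counts against 959.9, 1197 and 1092 (adjusted p = 2.38e-09, limma). ZNF667 stood at 0, 0 and 1.11 against 279, 385 and 336 (adjusted p = 1.16e-09). ZNF347 stood at 0, 9.21 and 10.0 against 1146, 1132 and 1089 and ZNF649 at 1.33, 1.15 and 2.23 against 404, 433 and 424 (adjusted p = 1.01e-06 and 1.1e-10). ZNF577, ZNF415 and ZNF665, without a read, were at least 22.9-fold, 14.7-fold and 20.2-fold lower. ZNF154 stood at 0, 0 and 1.11 and ZNF671 at 0, 0 and 2.23 (adjusted p = 1.09e-08 and 2.37e-08). The higher members were ZNF83 (7309, 8643 and 6319.7; log2 fold change 0.65 ± 0.134, adjusted p = 0.00101) and ZNF160 (4723, 5717 and 4834 against 3202, 3659.8 and 3506; log2 fold change 0.56 ± 0.104, adjusted p = 0.000479).

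Between the treated resistant populations 34 of 45 members were higher in resistant 1, against 28.6% of all genes. None was lower by limma, edgeR or DESeq2, and 0 were at an unadjusted p under 0.05, against 28.5% of all genes. Of 142 zinc finger genes elsewhere on chromosome 19, 80 were higher in resistant 1 (56.3%) and 18 lower. Of 62 other protein-coding genes of the stretch, 31 were higher (50%) and 4 lower. ZNF677, ZNF665, ZNF347 and ZNF415 differed most (adjusted p = 2.23e-09, 2.97e-11, 6.13e-07 and 7.13e-10, limma), and ZNF665 was at least 278-fold, ZNF415 at least 87.4-fold and ZNF577 at least 47.8-fold higher in resistant 1. ZNF649 stood at 475, 445 and 396 normalized counts and ZNF667 at 302, 356 and 266 in resistant 1, against 0 to 2 reads per library in resistant 2. Without treated replicate 1 of either resistant population 1 member was lower.

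The partners of KRAB repression were taken as a list of 23 genes. With DMSO, 17 of them were lower and the other 6 not called in resistant 1, and 14 were lower and 1 higher in resistant 2 (limma), with medians of -0.42 and -0.45. Among all genes 26.6% were lower and 29.3% higher in resistant 1, and 29.8% lower and 32.1% higher in resistant 2. TRIM28 stood at 42396, 41627 and 29973 normalized counts in parental libraries, 22001, 21098 and 27829 in resistant 1 (log2 fold change -0.68 ± 0.156, adjusted p = 0.00333) and 26051, 22415 and 29158 in resistant 2 (log2 fold change -0.55 ± 0.156, adjusted p = 0.0101). SETDB1 stood at 8249, 8784 and 9532, against 5782, 5913 and 4617 (log2 fold change -0.71 ± 0.125, adjusted p = 0.000588) and 6819.8, 7074 and 5536 (log2 fold change -0.46 ± 0.125, adjusted p = 0.00807). For TRIM28 and SETDB1 the parental libraries stood above all resistant ones.

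UHRF1, which guides DNMT1 to hemimethylated DNA, changed by -1.48 ± 0.396 in resistant 1 and -2.40 ± 0.396 in resistant 2 (adjusted p = 0.00799 and 0.000285, limma). The de novo methyltransferase DNMT3B changed by -1.46 ± 0.169 and -1.51 ± 0.169 (adjusted p = 2.58e-05 and 1.45e-05), resistant 1 first, and the maintenance methyltransferase DNMT1 by -1.42 ± 0.136 and -1.95 ± 0.136 (adjusted p = 6.17e-06 and 3.49e-07). The 1 gene of the list higher in resistant 2 was the other de novo methyltransferase, DNMT3A, given here after its values were seen. It stood at 3895 ± 338 normalized counts against 2272 ± 202 in parental cells (log2 fold change 0.78) and 1686 ± 133 in resistant 1. Between the resistant populations DNMT3A and the heterochromatin protein gene CBX1 differed by -1.21 ± 0.110 and 0.75 ± 0.0915 (resistant 1 against resistant 2, adjusted p = 4.27e-06 and 4.23e-05). With the drugs the differences from parental cells were -1.49 ± 0.252 and -1.89 ± 0.252 for UHRF1 and -1.33 ± 0.136 and -1.31 ± 0.136 for DNMT3B, resistant 1 first, and all 4 were called. Between the treated resistant populations they were -1.03 ± 0.0828 for DNMT3A and 0.65 ± 0.0762 for CBX1, both called.

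With the drugs 5 of the 23 rose and 10 fell in parental cells, 1 rose and 2 fell in resistant 1, and 2 rose and 1 fell in resistant 2. Among all genes 35.7% rose and 27.6% fell in parental cells, 14.7% and 13.5% in resistant 1, and 9.95% and 9.24% in resistant 2, so the counts in the resistant populations lie under those shares. DNMT3B rose in all 3 populations, from 8.95 ± 1.25 to 21.1 ± 1.79 CPM in parental cells, 3.33 ± 0.389 to 7.91 ± 1.40 in resistant 1 and 3.17 ± 0.568 to 7.70 ± 0.870 in resistant 2 (adjusted p = 1.87e-06, 3.92e-05 and 5.15e-05, limma). The next largest called responses in the resistant populations were those of the heterochromatin protein gene CBX3 in resistant 1 (-0.39 ± 0.0696, adjusted p = 0.000509) and of DNMT1 in resistant 2 (0.53 ± 0.130, adjusted p = 0.00816). TRIM28 did not pass the test in any population (adjusted p = 0.858, 0.924 and 0.895).

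Some members are hard to tell from related genes in short reads. The share of a member's 31-base words that occur in other genes ran from 0.247% to 79.2% with a median of 7.24%, and exceeded 10% in 22 members. It was 5.57% in ZNF677, 2.78% in ZNF667, 7.35% in ZNF154 and 0.635% in ZNF671. Exons of 14 members overlap exons on the opposite strand, those of ZNF677 over 3.09% and of ZNF667 over 1.54% of their length. The library kit keeps strand, but the strand setting of the counting is not given in the sources used here, so reads of such pairs may not be separated.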

How the data were processed

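Per the submitters' processing notes, reads were handled with FastQC, MultiQC, STAR, featureCounts and DESeq2 on GRCh38 (hg38), with versions and annotation not given in the sources used here. The authors deposited 2 tables of normalized counts, unit signal, 1 per treatment with 9 libraries each, so levels are compared within a table or as CPM. In the DMSO table every value was a whole number of reads within 0.01. In the deposited table of treated libraries, recorded as other unit, the decimal points were lost. They were restored from whole-read multiples with a Bayesian model at a posterior of at least 99%: 20746 of 25181 genes at the filter were resolved (82.4%) and 4435 were left out, with 47.6% resolved at the lowest levels and 98.7% from a mean of 1000. The model averaged 2 versions, 1 of which let treated populations differ as they did with DMSO. The set of resolved genes can thus favour differences kept under the drugs. Without that version 20041 genes were resolved. Of 19904 genes resolved both ways, 0 were restored otherwise. Run on DMSO values without their points, the method resolved 18373 of 21643 genes, with 21 wrong values of 165357 among these. That check is not independent. The spread in the model was fitted on the same DMSO values, and treated values restored with the help of DMSO differences entered it.

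Each table was fitted separately with limma trend, on log2(normalized count + 1), over genes with at least 10 in at least 3 of 9 libraries. Responses used log2(CPM + 1) of the recovered reads, TMM-scaled, with at least 10 reads in at least 3 of 18 libraries. p-values were adjusted by Benjamini-Hochberg over all genes tested (R 4.3.3, limma 3.58.1, edgeR 4.0.16, DESeq2 1.42.0). The count tests ran on recovered reads, where 100% of values came out whole. Tested on simulated data, 65.7% of 2-fold changes were found in the comparison of resistant 1 with parental cells with DMSO (21643 genes, 8.39% false calls) and 71.6% in the parental response (21226 genes, 2.03%). Only a small set of genes was changed there. In the data 6348 genes were called higher and 5754 lower in that DMSO comparison, so the simulated shares do not carry over.

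Members and lists were chosen with earlier results of these data known. Named genes were the 4 largest called changes in each direction (2 for differences of responses), the called genes with under 3 reads in every library of a group, and, of the KRAB repression list, TRIM28, SETDB1 and the 2 largest called changes per comparison, of which 1 is not reported here; others are said to be chosen after their values were seen. No replicate pair was within sampling noise (chi-square 8.99 to 215 times its degrees of freedom). Same-numbered libraries of the 2 treatments deviated together in resistant 1 (r = 0.39 to 0.87) and resistant 2 (0.75 to 0.86), and not in parental cells (-0.27 to 0.47). Between populations r ran from -0.28 to 0.38 with DMSO. Same-numbered pairs of resistant 1 with resistant 2 were all weakly positive, at 0.085 to 0.38 with DMSO and 0.090 to 0.24 with the drugs. Their differently numbered pairs ran from -0.32 to 0.11 and from -0.30 to 0.20. Pairing therefore comes from the data and not from the labels, and a block within populations was added after seeing the data.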

Additional observations from a re-analysis of the deposited data

Results flagged for a closer look

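The responses to ATRA and decitabine differed between populations by a direct test of the difference on the log2(CPM + 1) scale (limma). Relative to parental cells, 25 members had a lower response in resistant 1 and 28 in resistant 2. Both tests use the same parental libraries. ZNF671, ZNF154 and ZNF835 entered them only through treated libraries, so their calls are description only.

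For resistant 1 minus parental the difference was -2.52 for ZNF677, -2.05 for ZNF525, -1.03 for ZNF671, -0.67 for ZNF154 and -0.53 for ZNF665. The call of ZNF154 was lost with edgeR (adjusted p = 0.0558) and DESeq2 (0.0579), and that of ZNF665 with a pseudocount of 10 (0.279). For resistant 2 minus parental it was -3.13 for ZNF677, -2.50 for ZNF525, -1.74 for ZNF667, -1.38 for ZNF671, -1.0006 for ZNF154 and -1.002 for ZNF347. It was -0.92 for ZNF649, -0.59 for ZNF665, -0.46 for ZNF577, -0.42 for ZNF415 and -0.082 for ZNF835. With edgeR on the reads 10 of these 11 resistant 2 calls were lost, all but that of ZNF525. ZNF649 and ZNF347 had the opposite sign (adjusted p = 0.234 and 0.603), and the other 8 had adjusted p from 0.973 to 0.999875. With DESeq2 the calls of ZNF649, ZNF347, ZNF577 and ZNF415 were lost (0.504, 0.537, 0.330 and 0.0659), and with a pseudocount of 10 those of ZNF415 and ZNF665 (0.158 and 0.0680).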

How the results depend on the processing

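Of 500 recomputed counts of called members, 443 stayed within 1.5 times the main count. Of 1841 recomputed values of named genes, 1764 kept direction and call and 73 lost the call. The response of resistant 2 minus parental was lower in 15 members with edgeR in place of 28, and 2 genes reversed without a call: ZNF649 to 2.15 (edgeR, adjusted p = 0.234) and 1.23 (DESeq2, 0.504), ZNF347 to 0.56 (edgeR, 0.603) and 0.67 (DESeq2, 0.537). A ratio of reads against almost no reads is not the quantity tested on the log2(CPM + 1) scale. Falls in parental cells numbered 1 with a filter of 50, a pseudocount of 10 or the stricter posterior threshold. In resistant 1 rises numbered 5 at that threshold, and falls 1 without a filter, with DESeq2 size factors or at that threshold, and 4 with a pseudocount of 10. In resistant 2 rises numbered 3 with edgeR, DESeq2 or a pseudocount of 0.1 CPM (added after seeing the data), 2 with a filter of 50 or at that threshold, and 0 with a pseudocount of 10, DESeq2 size factors or the compared groups alone, and falls 1 with DESeq2. The cause of these shifts was not tested.

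With the replicate number as a block over all libraries 1 member fell in resistant 2. With the replicate block within populations, added after seeing the data, 8 fell in resistant 1, and 2 rose and 5 fell in resistant 2. Other counts stayed within 1.5 times. Shares over all genes under these blocks were not counted.

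Leaving out 1 library at a time gave, for falls, 1 to 2 in the parental response, 0 to 3 in resistant 1 and 0 to 2 in resistant 2, and 0 to 3 rises in resistant 2. The treated comparison of the resistant populations had 0 to 1 lower. In resistant 1 against parental with DMSO 19 to 25 were higher, in resistant 2 29 to 32 lower, in the parental response 28 to 33 rose, and the responses were lower in 21 to 30 (resistant 1) and 22 to 31 (resistant 2). Of treated genes, 47.6% were restored at the lowest levels and 98.7% from a mean of 1000.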
